A study of Mus musculus with 6 samples.

Results

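This is an account of 38 genes for enzymes that break down branched-chain and other amino acids, or make proline, serine and asparagine, in induced brown adipocytes of U-IRX3ov and control mice. They were picked by gene symbol from a list of enzymes, and all 38 have a row among the 46095 rows of the deposited count table. The list holds 21 genes for the branched-chain amino acids and propionate, 5 for proline and ornithine, 9 for glycine, serine and their folate steps, 2 for lysine and tryptophan, and Asns for asparagine.

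RNA was sequenced from 3 U-IRX3ov libraries and 3 control libraries, all from mice on the C57BL/6 background. The cells of both groups were grown from the stromal vascular fraction (the non-adipocyte cells of a digested fat pad) of brown fat of mice aged 5 weeks. Both groups went through the same 8 days of induction, which began with 5 µg/mL insulin, IBMX at 0.5 mM, and dexamethasone, rosiglitazone and the thyroid hormone T3 at 1 µM each, and went on with insulin, rosiglitazone and T3 alone. The name U-IRX3ov stands for an IRX3 overexpressing genotype whose libraries are titled KI, and the sources used here do not name its promoter or the cell types that carry it. Whether the 3 libraries of a group stem from separate mice or dishes is not stated, so p-values here measure the spread between these libraries, which may be technical.

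Leucine, isoleucine and valine share their opening steps. An aminotransferase (Bcat1 in the cytosol, Bcat2 in mitochondria) removes the amino group, and the branched-chain ketoacid dehydrogenase complex of the mitochondrial matrix then makes the irreversible, committed step, which a kinase (Bckdk) turns down and a phosphatase (Ppm1k) turns up. After it each amino acid has its own route, and those of isoleucine and valine end in propionyl-CoA, which enters the tricarboxylic acid cycle as succinyl-CoA. Brown fat of mice is known to take up and oxidise branched-chain amino acids when it makes heat.

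Library totals ran from 20094799 to 26755870 counts. Irx3 itself, the gene of the genotype's name, had 163, 123 and 114 counts in U-IRX3ov libraries and 131, 142 and 138 in control libraries (log2 fold change 0.27 ± 0.13 SE, edgeR adjusted p = 0.112), and it is not known if transcripts of the construct count toward this gene. The label of brown adipocytes was checked on defining markers. A marker counts as higher or lower at an edgeR adjusted p under 0.05. Of all 14757 tested genes 20.2% were higher and 21.1% lower by this threshold. Of 11 brown adipocyte markers 9 were higher and 2 lower (Zic1 and Lhx8). Their summed levels were 799 to 901 CPM in U-IRX3ov and 323 to 333 CPM in control libraries, where CPM is a count scaled to the size of its library. Their log2 fold changes ran from -0.88 (Zic1) to 3.60 (Ucp1), with a median of 0.66. Of 12 general adipocyte markers 10 were higher and 0 lower, with summed levels of 43366 to 44843 CPM in U-IRX3ov and 34804 to 35458 CPM in control libraries and a median log2 fold change of 0.21. Markers of other cell types moved in the same libraries. All 10 tested of 12 fibroblast and preadipocyte markers were lower (summed 3974 to 4299 CPM in U-IRX3ov, 6629 to 6786 CPM in control), as were all 9 tested of 11 leukocyte markers (142 to 214 CPM in U-IRX3ov, 444 to 547 CPM in control). Of 6 mural cell markers 4 were lower and 2, Cspg4 and Des, higher (2037 to 2271 CPM in U-IRX3ov, 3299 to 3431 CPM in control). Acta2 made up most of the mural sum, with means of 1819 CPM in U-IRX3ov and 2950 CPM in control. Of 5 tested of 6 endothelial markers 3 were higher (34.8 to 39.2 CPM in U-IRX3ov, 16.9 to 21.2 CPM in control), with Cldn5 at 0 in every library. Of 6 skeletal muscle markers only Acta1 passed the filter, and it was lower (13.5 to 16.7 CPM summed in U-IRX3ov, 18.9 to 21.7 CPM in control). The part of these markers in the results that follow was not tested, and fewer cells of a type and less RNA per cell cannot be told apart in bulk RNA.

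Most genes for branched-chain amino acid and propionate breakdown were higher in U-IRX3ov cells, while the genes that fell belong to proline, ornithine and glycine metabolism. The 37 members that passed the filter on low counts were tested in an edgeR quasi-likelihood fit over all 14757 tested genes, and a gene counts as called below an adjusted p of 0.05. Of these, 24 were higher, 3 were lower (Oat, Pycr1 and Gldc) and 10 were not called. Over all tested genes 20.2% were called higher and 21.1% lower, 41.3% in either direction. Among the 8987 tested genes that averaged at least 10 CPM, the shares were 27.3% higher and 23.8% lower. The members' median log2 fold change was 0.27, beside 0.00 for all tested genes, and their changes were moderate, from -0.77 (Gldc) to 0.81 (Shmt1).

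Counts of some members may be uncertain, because the span of another gene overlaps theirs and the counting may not use strand. Overlap was taken between whole gene spans from start to end, and overlap of exons was not checked. On the opposite strand 20 members have such a partner (Bckdha with B3gnt8, Aldh6a1 with Bbof1, Mut with Cenpq, Gcdh with Syce2, Shmt1 with Smcr8). On the same strand 10 have one (Oat with Fgfr2), and 14 have none on either strand, Pccb and Pycr1 among them.

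The pathways differed in how many genes were called. Of the 21 branched-chain and propionate genes, which all passed the filter, 19 were higher, 0 were lower, and Bcat1 and Ivd were not called, with a median log2 fold change of 0.44. At an unadjusted p under 0.05, and also under DESeq2, 1 of them was lower (Bcat1). Of the 4 tested proline and ornithine genes 0 were higher and 2 lower (median -0.23), with 0 higher also at an unadjusted p under 0.05 and under DESeq2. Of the 9 glycine, serine and folate genes 3 were higher, 1 lower and 5 not called (median 0.07). Their shares of 33.3% higher and 11.1% lower stand beside 20.2% and 21.1% of all tested genes. Among tested genes averaging at least 10 CPM the shares were 27.3% and 23.8%. The difference between these groups was not tested as such. Summed over its 21 genes, the branched-chain and propionate group stood at 2446, 2538 and 2602 CPM in U-IRX3ov and at 1815, 1817 and 1828 CPM in control libraries. The 5 proline and ornithine genes summed to 332, 327 and 333 CPM in U-IRX3ov and to 383, 371 and 395 CPM in control libraries. In neither sum did the groups of libraries overlap, and the directions were opposite. Oat alone carried nearly all of the difference in the proline and ornithine sum. It averaged 195 CPM in U-IRX3ov and 247 CPM in control cells, beside summed means of 331 and 383 CPM.

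**Figure D1:**
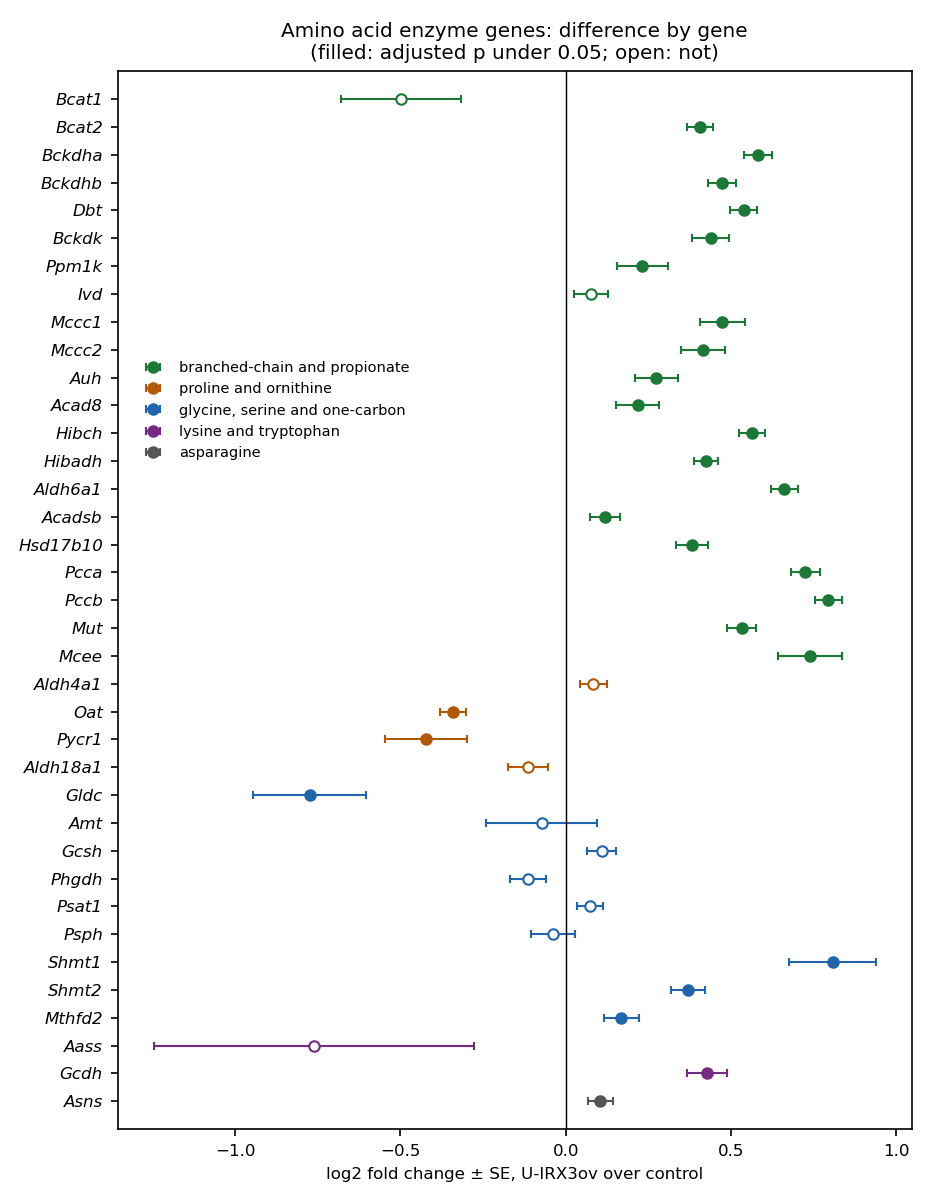
Log2 fold change of U-IRX3ov over control (x axis) for the 37 tested genes (y axis), with bars for the standard error, coloured by pathway and filled where the edgeR adjusted p was under 0.05. The 19 filled points of the branched-chain and propionate group all lie right of 0, while Oat, Pycr1 and Gldc are the filled points left of it.

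The aminotransferases of the opening step differed in direction. Bcat2, the mitochondrial enzyme (chr7:45570153-45589711, plus strand, GRCm38, as all gene positions here), stood at 216, 226 and 223 CPM in U-IRX3ov and 159, 172 and 172 CPM in control libraries. Every U-IRX3ov library lay above every control library, 1.33-fold higher (log2 0.41 ± 0.04 SE, edgeR adjusted p = 2.02e-09). Bcat1, the cytosolic enzyme (chr6:144993835-145076184, minus strand), had 22.4, 16.5 and 19.8 CPM in U-IRX3ov and 33.9, 24.5 and 25.0 CPM in control libraries. Its groups did not overlap either, but replicate 1 was the highest library in both of them, and the log2 fold change of -0.50 ± 0.18 was not called (edgeR adjusted p = 0.0847). In 7 of 14 alternatives it was called lower. Without control replicate 1 it was -0.33 with an edgeR adjusted p of 0.0110, without U-IRX3ov replicate 1 it was -0.62 (0.0493), and DESeq2 gave an adjusted p of 6.46e-04. limma-voom, edgeR with no filter on low counts and edgeR without robust estimation called it too (adjusted p = 0.00366, 1.09e-07 and 0.00213). Per kilobase of annotated exons Bcat2 exceeded Bcat1 23.0, 32.9 and 26.9 times in U-IRX3ov and 11.2, 16.8 and 16.4 times in control libraries. The size of this ratio rests on the length used: with the longest transcript, an alternative chosen after seeing the data, it was 36.3, 51.7 and 42.4 in U-IRX3ov and 17.6, 26.4 and 25.8 in control libraries, 1.57 times as high in each. With either length the ratio was 0.91 higher on the log2 scale in U-IRX3ov cells (exact permutation p = 0.1, two-sided, the smallest that 3 against 3 libraries can give, 1 of 4 ratios computed).

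Subunits of the ketoacid dehydrogenase complex rose together. Bckdha, the alpha subunit of its decarboxylase, stood at 205, 204 and 210 CPM in U-IRX3ov and 131, 137 and 147 CPM in control libraries, with no overlap (1.50-fold, log2 fold change 0.58 ± 0.04, edgeR adjusted p = 3.97e-12). Dbt, the transacylase core, had 153, 167 and 166 CPM in U-IRX3ov and 113, 113 and 109 CPM in control libraries (1.45-fold, log2 0.54 ± 0.04). The beta subunit Bckdhb averaged 109 ± 3.24 CPM in U-IRX3ov and 78.5 ± 3.05 CPM in control cells (SD, n = 3 each; 1.39-fold). The log2 fold changes of these 3 subunits thus lay between 0.47 and 0.58.

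Both regulators of the complex, which act in opposite directions on its activity, were higher. The inhibiting kinase Bckdk had 52.6, 49.8 and 53.4 CPM in U-IRX3ov and 39.8, 37.4 and 37.9 CPM in control libraries, without overlap (1.35-fold, log2 0.44 ± 0.06, edgeR adjusted p = 3.26e-07). The activating phosphatase Ppm1k had 20.0, 20.5 and 23.3 CPM in U-IRX3ov and 17.6, 18.5 and 18.2 CPM in control libraries (1.17-fold, log2 0.23 ± 0.08, edgeR adjusted p = 0.0186). U-IRX3ov replicate 3 was its highest library, and the call was lost without it (edgeR adjusted p = 0.151), without control replicate 1 (0.0709) and under DESeq2 (0.0592). Per length, Bckdk exceeded Ppm1k 4.28, 3.96 and 3.72 times in U-IRX3ov and 3.67, 3.30 and 3.39 times in control libraries. The ratio of kinase to phosphatase was 0.21 higher on the log2 scale in U-IRX3ov cells, with no overlap of libraries (exact permutation p = 0.1, two-sided, the smallest possible here). Set against the subunit its enzyme phosphorylates, Bckdk per Bckdha was 0.14 lower on the log2 scale in U-IRX3ov cells (0.132, 0.125 and 0.130 per length, against 0.157, 0.140 and 0.133 in control; exact permutation p = 0.1, two-sided).

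**Figure D2:**
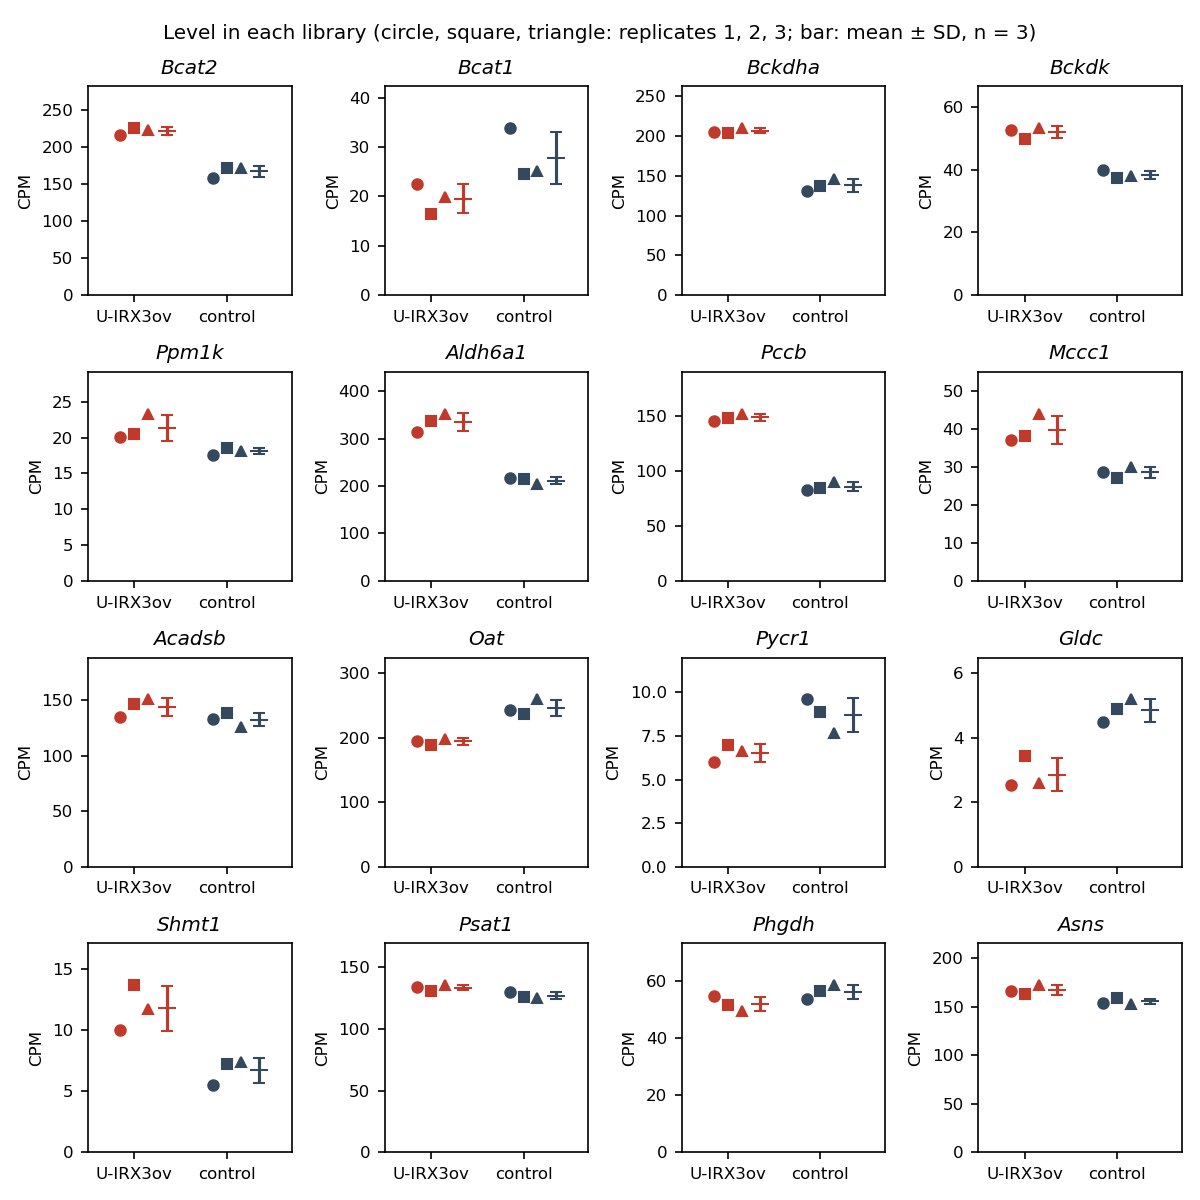
CPM (y axes, each from 0) of 16 genes in the 3 U-IRX3ov libraries (left in each panel) and the 3 control libraries (right), with the mean and SD beside them. Libraries of the groups are apart for Bcat2, Bckdha, Bckdk, Aldh6a1, Pccb and Oat, overlap for Acadsb and Phgdh, and replicate 1 is the highest library of both groups for Bcat1.

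In the leucine branch 3 of 4 genes rose. Mccc1, the biotin-carrying subunit of methylcrotonyl-CoA carboxylase, had 37.2, 38.3 and 44.2 CPM in U-IRX3ov and 28.6, 27.2 and 30.2 CPM in control libraries (1.39-fold, log2 0.47 ± 0.07, edgeR adjusted p = 2.36e-06). Its partner subunit Mccc2 had 41.4, 40.2 and 43.4 CPM in U-IRX3ov and 28.1, 33.2 and 32.5 CPM in control libraries (1.33-fold, log2 0.42 ± 0.07). For both subunits all U-IRX3ov libraries were above all control libraries. Auh, the hydratase after the carboxylase, rose 1.21-fold (log2 0.27 ± 0.06, edgeR adjusted p = 0.00103). Ivd, the isovaleryl-CoA dehydrogenase before it, averaged 67.3 ± 3.74 CPM in U-IRX3ov and 63.7 ± 2.37 CPM in control cells (SD, n = 3 each), with overlapping libraries, and was not called (log2 0.08 ± 0.05, edgeR adjusted p = 0.244).

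All 4 genes of the valine branch rose. Aldh6a1, the methylmalonate semialdehyde dehydrogenase that yields propionyl-CoA, stood at 314, 336 and 353 CPM in U-IRX3ov and 217, 214 and 203 CPM in control libraries. The groups were far apart (1.58-fold, log2 0.66 ± 0.04, edgeR adjusted p = 4.37e-13). Hibch, the hydroxyisobutyryl-CoA hydrolase, had 173, 179 and 186 CPM in U-IRX3ov and 123, 117 and 124 CPM in control libraries (1.48-fold, log2 0.56 ± 0.04). Hibadh, which oxidises the freed hydroxyisobutyrate, rose 1.34-fold (log2 0.42 ± 0.04), and the isobutyryl-CoA dehydrogenase Acad8 rose 1.16-fold (log2 0.22 ± 0.06, edgeR adjusted p = 0.00753). The Acad8 call was lost without U-IRX3ov replicate 2 (edgeR adjusted p = 0.0581).

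The isoleucine branch is represented by 2 genes, of which the later enzyme rose more. Hsd17b10, a hydroxyacyl-CoA dehydrogenase encoded on the X chromosome, had 96.4, 86.1 and 88.4 CPM in U-IRX3ov and 71.9, 67.2 and 69.2 CPM in control libraries (1.30-fold, log2 0.38 ± 0.05, edgeR adjusted p = 2.29e-07). Acadsb, the short/branched-chain acyl-CoA dehydrogenase, had 135, 146 and 151 CPM in U-IRX3ov and 133, 138 and 126 CPM in control libraries. These libraries overlapped, and its 1.09-fold rise passed narrowly (log2 0.12 ± 0.04, edgeR adjusted p = 0.0337). It was lost without control replicate 1 or 3 (edgeR adjusted p = 0.0741 and 0.149), without U-IRX3ov replicate 2 or 3 (0.109 and 0.181), under upper-quartile scaling (0.0603), limma-voom (0.0563) and DESeq2 (0.0561), 7 of 14 alternatives in all. Across the branches the acyl-CoA dehydrogenases Ivd, Acad8 and Acadsb thus had log2 fold changes of 0.08, 0.22 and 0.12, below those of the complex before them.

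The 4 propionate genes had the highest median of the branched-chain steps, 0.73 on the log2 scale. Pccb, the beta subunit of propionyl-CoA carboxylase (chr9:100982032-101034898, minus strand), stood at 145, 148 and 152 CPM in U-IRX3ov and 82.6, 84.5 and 89.9 CPM in control libraries (1.73-fold, log2 0.79 ± 0.04, edgeR adjusted p = 9.07e-15). The alpha subunit Pcca, which carries the biotin, had 115, 121 and 124 CPM in U-IRX3ov and 74.7, 70.4 and 72.2 CPM in control libraries (1.65-fold, log2 0.72 ± 0.04). For neither subunit did the groups overlap. The epimerase Mcee, at lower counts, averaged 24.9 ± 3.18 CPM in U-IRX3ov and 14.8 ± 1.71 CPM in control cells (SD, n = 3 each; 1.67-fold, log2 0.74 ± 0.10). Methylmalonyl-CoA mutase, Mut, which closes the route with a vitamin B12 cofactor, averaged 124 ± 6.64 CPM in U-IRX3ov and 85.4 ± 2.23 CPM in control cells (1.45-fold, log2 0.53 ± 0.04).

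The Pccb promoter is shown because its gene had the highest fold change of the branched-chain group and because its window held a motif searched for among the members. Windows from 250 bases before to 50 bases after each gene's start, from RefSeq on GRCm38.p6, were found for 36 of the 38 members (not for Dbt and Mut), 42 windows in all. The letters GCGCANGCG, the core bound by the nuclear respiratory factor NRF1, an activator of many mitochondrial genes, were searched on both strands. They occurred in 6.25% of all 32851 windows and in those of 4 members, Pccb, Hibadh, Shmt2 and Aldh18a1. Of these genes 3 were higher and Aldh18a1 was not called, beside 24 of all 37 tested members (64.9%) called higher. Whether the letters go with the rise was not tested. The single site AAGGTCA of estrogen-related receptors was in 4.72% of all windows and, among the members, in that of Amt alone. In the Pccb window the capitals mark the NRF1 letters, which begin at positions -69 and -35 relative to the annotated start (chr9:101034835-101035134, GRCm38.p6, minus strand).
Pccb: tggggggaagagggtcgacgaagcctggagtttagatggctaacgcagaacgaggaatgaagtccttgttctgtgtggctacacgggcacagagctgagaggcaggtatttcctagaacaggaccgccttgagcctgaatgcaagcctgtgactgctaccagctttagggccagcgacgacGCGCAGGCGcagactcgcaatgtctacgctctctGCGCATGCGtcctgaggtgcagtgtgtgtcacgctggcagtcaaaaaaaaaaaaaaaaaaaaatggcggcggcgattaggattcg
A match describes these letters and does not show that a factor binds there.

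Proline and ornithine genes did not share the rise. Oat, the ornithine aminotransferase that links ornithine to the proline and glutamate pool (chr7:132557478-132576398, minus strand), stood at 196, 189 and 199 CPM in U-IRX3ov and 243, 237 and 259.8 CPM in control libraries. All U-IRX3ov libraries were below all control libraries (0.789-fold, log2 -0.34 ± 0.04, edgeR adjusted p = 4.98e-08). Pycr1, the mitochondrial reductase that finishes proline synthesis, had 6.00, 6.98 and 6.61 CPM in U-IRX3ov and 9.60, 8.90 and 7.68 CPM in control libraries (0.745-fold, log2 -0.42 ± 0.12, edgeR adjusted p = 0.00702). Control replicate 1 was its highest library, and without it the call was lost (edgeR adjusted p = 0.0522). Aldh18a1, the synthase of the step from glutamate, had 39.8, 41.6 and 39.6 CPM in U-IRX3ov and 45.3, 40.6 and 45.1 CPM in control libraries, which overlapped, and was not called (log2 -0.11 ± 0.06, edgeR adjusted p = 0.134). Without control replicate 2, the lowest control library, it was called lower (log2 -0.16, edgeR adjusted p = 0.0448).

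Of the proline oxidation enzymes, Aldh4a1, the dehydrogenase of the closing step to glutamate, had 89.8, 89.4 and 88.0 CPM in U-IRX3ov and 85.2, 84.5 and 82.6 CPM in control libraries. Its libraries did not overlap, but the difference of 0.08 ± 0.04 on the log2 scale was not called (edgeR adjusted p = 0.115). Prodh, the proline dehydrogenase of the opening step, had 5, 0 and 2 counts in U-IRX3ov and 2, 1 and 1 counts in control libraries. At this depth no difference in Prodh was detectable, and it did not enter the test.

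Among the glycine cleavage genes, Gldc, the decarboxylase that starts the reaction (chr19:30098447-30175429, minus strand), was the only one called. It was low in both groups, with 66, 67 and 50 counts in U-IRX3ov and 123, 128 and 140 counts in control libraries, or 2.54, 3.44 and 2.58 CPM in U-IRX3ov and 4.49, 4.89 and 5.20 CPM in control libraries. The groups did not overlap (0.584-fold, log2 -0.77 ± 0.17, edgeR adjusted p = 5.31e-04). Gcsh, the lipoate-carrying H protein, had 81.9, 88.5 and 88.1 CPM in U-IRX3ov and 80.7, 79.2 and 79.7 CPM in control libraries, just short of the threshold (log2 0.11 ± 0.04, edgeR adjusted p = 0.0520). It passed without U-IRX3ov replicate 1, its lowest U-IRX3ov library (edgeR adjusted p = 0.0215), with RLE scaling (0.0436) and with a filter of 1 CPM (0.0473). The aminomethyltransferase Amt averaged 4.02 ± 0.43 CPM in U-IRX3ov and 4.22 ± 0.72 CPM in control cells (SD, n = 3 each), with overlapping libraries.

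Serine synthesis showed 0 calls in its 3 genes under edgeR and under DESeq2, and 1 (Phgdh) at an unadjusted p under 0.05. Phgdh, the dehydrogenase that diverts a glycolytic intermediate into serine, had 54.6, 51.6 and 49.6 CPM in U-IRX3ov and 53.7, 56.6 and 58.6 CPM in control libraries (log2 -0.11 ± 0.05, edgeR adjusted p = 0.0991). The aminotransferase Psat1 had 134, 131 and 135 CPM in U-IRX3ov and 130.0, 126 and 125 CPM in control libraries (log2 0.07 ± 0.04, edgeR adjusted p = 0.137). The phosphatase Psph had a log2 fold change of -0.04 ± 0.07. Libraries overlapped for Phgdh and Psph and were narrowly apart for Psat1. Phgdh has an annotated pseudogene copy, Phgdh-ps1, with which reads may have been shared.

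The 3 genes that pass serine's carbon to folate were all higher. Shmt1, the cytosolic serine hydroxymethyltransferase (chr11:60788104-60811718, minus strand), had 10.0, 13.7 and 11.7 CPM in U-IRX3ov and 5.51, 7.22 and 7.42 CPM in control libraries, the highest fold of all members (1.75-fold, log2 0.81 ± 0.13, edgeR adjusted p = 1.53e-05). Its mitochondrial counterpart Shmt2 had 69.3, 70.4 and 71.7 CPM in U-IRX3ov and 58.1, 51.6 and 53.8 CPM in control libraries (1.29-fold, log2 0.37 ± 0.05, edgeR adjusted p = 1.12e-06). Per length, Shmt2 exceeded Shmt1 8.66, 6.41 and 7.64 times in U-IRX3ov and 13.2, 8.93 and 9.06 times in control libraries, 0.44 lower on the log2 scale in U-IRX3ov cells (exact permutation p = 0.1, two-sided). Mthfd2, the mitochondrial folate dehydrogenase and cyclohydrolase, averaged 66.8 ± 0.23 CPM in U-IRX3ov and 59.5 ± 4.70 CPM in control cells (SD, n = 3 each; log2 0.17 ± 0.05, edgeR adjusted p = 0.0128). Its call was lost without control replicate 1 or 2 (edgeR adjusted p = 0.0882 and 0.0686).

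For lysine and tryptophan, Gcdh, the glutaryl-CoA dehydrogenase on which both routes meet, had 42.1, 43.2 and 42.5 CPM in U-IRX3ov and 30.3, 31.8 and 33.0 CPM in control libraries, with no overlap (1.34-fold, log2 0.43 ± 0.06, edgeR adjusted p = 1.36e-06). Aass, the synthase that opens lysine breakdown, had 15, 2 and 7 counts in U-IRX3ov and 22, 13 and 15 counts in control libraries, too few to separate the groups (log2 -0.76 ± 0.48, edgeR adjusted p = 0.221). Asns, the asparagine synthetase, had 166, 163 and 172 CPM in U-IRX3ov and 154, 159 and 153 CPM in control libraries. It passed with a 1.08-fold rise (log2 0.10 ± 0.04, edgeR adjusted p = 0.0285), which was lost without control replicate 1 or 3 (0.0882 and 0.0644), without U-IRX3ov replicate 3 (0.130) and under upper-quartile scaling (0.0608).

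Asns, Psat1, Phgdh, Mthfd2, Pycr1 and Aldh18a1 are among the members known as targets of the transcription factor ATF4, and this is not a full list. In mammalian cells ATF4 raises such genes when amino acids run short. Its composite site with C/EBP factors, TGATGNAA, was searched on both strands and was found in 3.97% of all promoter windows and, among the members, in those of Asns and Pycr1. These genes differed in direction, and both windows are shown with the site in capitals (Asns, chr6:7693160-7693459, site from position -23; Pycr1, chr11:120643699-120643998, site from position -103; GRCm38.p6, both minus strand).
Asns: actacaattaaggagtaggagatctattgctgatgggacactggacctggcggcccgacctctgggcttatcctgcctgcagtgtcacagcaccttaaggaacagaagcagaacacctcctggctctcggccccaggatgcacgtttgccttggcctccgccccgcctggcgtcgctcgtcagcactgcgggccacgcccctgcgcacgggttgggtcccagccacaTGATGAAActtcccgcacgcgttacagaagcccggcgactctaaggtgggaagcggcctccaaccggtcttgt
Pycr1: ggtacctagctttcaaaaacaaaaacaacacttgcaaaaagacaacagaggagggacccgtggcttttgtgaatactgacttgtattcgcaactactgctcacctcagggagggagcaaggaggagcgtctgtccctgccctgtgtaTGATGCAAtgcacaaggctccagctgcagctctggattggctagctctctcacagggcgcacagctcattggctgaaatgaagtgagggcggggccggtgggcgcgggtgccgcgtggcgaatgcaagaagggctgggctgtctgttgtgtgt
Of 24 other genes, ATF4 and known targets of it, 8 were higher and 4 lower, with a median log2 fold change of 0.01. These shares of 33.3% and 16.7% stand beside 20.2% and 21.1% of all tested genes. The smallest p-values were those of Vldlr (0.70 ± 0.04), Cebpb (0.68 ± 0.04) and Cebpg (0.37 ± 0.04) among the rises and of Herpud1 (-0.26 ± 0.05), Gdf15 (-0.22 ± 0.05) and the amino acid transporter Slc7a5 (-0.25 ± 0.06) among the falls.

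Per length of annotated exons, the 37 tested members covered a wide range of levels. Bckdha had the highest level in U-IRX3ov cells, 109 ± 1.71 CPM per kb, against 72.8 ± 4.24 in control cells (SD, n = 3 each). In control cells Oat was the highest, at 104 ± 5.05 CPM per kb, against 82.4 ± 2.10 in U-IRX3ov cells, so the order of these genes differed between the groups. Next in U-IRX3ov cells came Hsd17b10 (69.6 ± 4.18), Asns (61.0 ± 1.73), Bckdhb (60.4 ± 1.79), Aldh6a1 (57.8 ± 3.35), Bcat2 (56.9 ± 1.35), Gcsh (54.6 ± 2.32) and Pccb (53.6 ± 1.19 CPM per kb). In this order Asns and Bckdhb lay closer to each other than the SD of either, as did Aldh6a1 and Bcat2, and Gcsh and Pccb. At the low end stood Pycr1 (1.66 ± 0.13), Amt (1.65 ± 0.18), Gldc (0.468 ± 0.083) and Aass (0.091 ± 0.062 CPM per kb in U-IRX3ov cells). The order rests on the length used, and with the longest transcript in place of all exons Bcat2 came to 107 CPM per kb in U-IRX3ov cells, next to Bckdha.

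**Figure D3:**
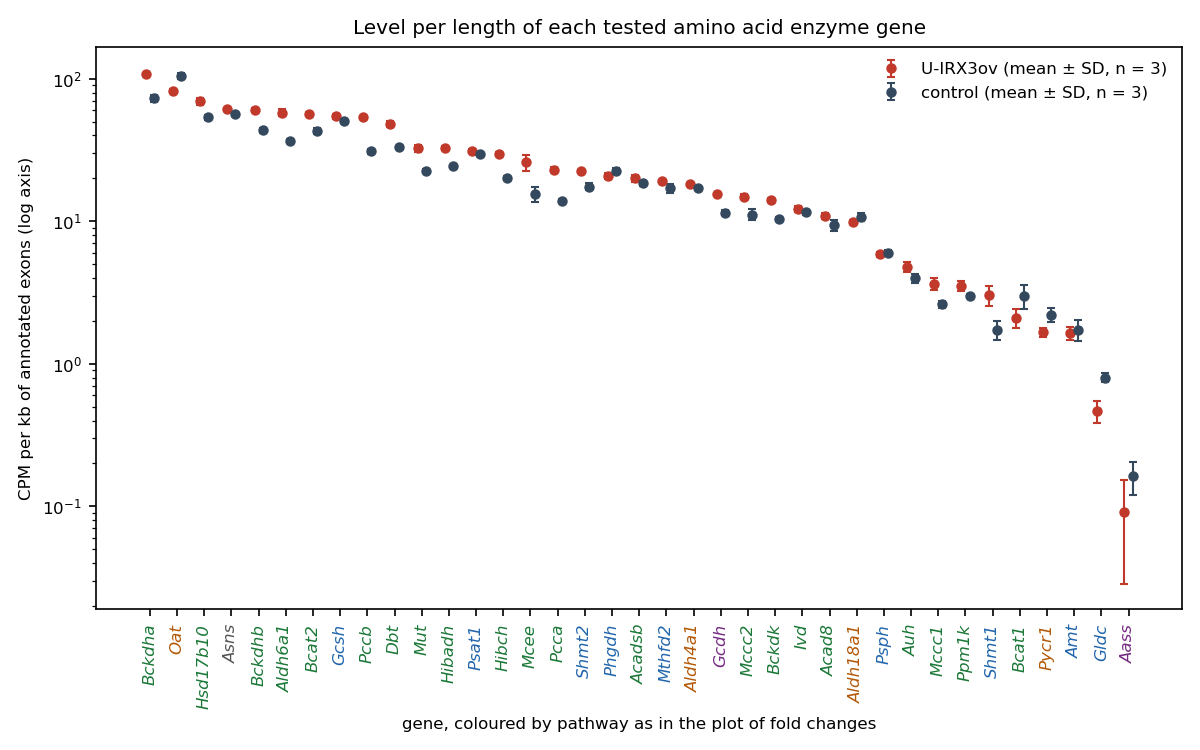
CPM per kb of annotated exons (y axis, log scale; mean ± SD of 3 libraries) of the 37 tested genes (x axis), U-IRX3ov left of control for each gene and ordered by the U-IRX3ov level. Bckdha (109) leads in U-IRX3ov and Oat (104) in control cells, and Gldc and Aass lie under 1 in both.

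Other genes of the same or nearby routes were counted from lists. Of 22 further genes listed for branched-chain and propionate breakdown 20 were higher (90.9%) and 1 lower (4.5%), with a median log2 fold change of 0.39. Over all tested genes 20.2% were called higher and 21.1% lower. Not all of the 22 are breakdown enzymes, as the transcription factor Klf15 and the sterol synthesis enzyme Hmgcs1 are among them. This list includes enzymes shared with fat oxidation and the tricarboxylic acid cycle, among them Hadha (0.86 ± 0.03), Hadhb (0.83 ± 0.04) and Sucla2 (0.83 ± 0.04), which had its smallest p-values. The member that fell was Abat, an aminotransferase of GABA and of a valine breakdown product, with 20.2 CPM in U-IRX3ov and 38.3 CPM in control cells (log2 -0.92 ± 0.07, edgeR adjusted p = 6.65e-12).

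The counts that follow stand beside 20.2% of all tested genes called higher and 21.1% called lower. Of 13 tested proline, glutamate and arginine genes 5 were higher (38.5%) and 2 lower (15.4%), with a median of 0.14. Glul (0.37 ± 0.04) and the aminotransferases Got1 (0.43 ± 0.06) and Gpt (0.48 ± 0.07) rose. The arginine synthesis enzyme Ass1 (-1.07 ± 0.08) was among those that fell. Of 12 tested serine, glycine and folate genes 3 were higher (25.0%), Srr (0.32 ± 0.07), Aldh1l1 (0.30 ± 0.07) and Mthfd1l (0.22 ± 0.09), with a median of 0.06. Of 9 tested genes in the list for lysine, tryptophan, tyrosine and electron transfer 6 were higher (66.7%, median 0.41). They were led by the electron transfer genes Etfa (0.73 ± 0.04) and Etfdh (0.66 ± 0.03) and the tyrosine route's Gstz1 (0.58 ± 0.04). The other 13 of its 22 genes, among them Kynu, Tdo2 and Acmsd with 0 counts in every library, did not pass the filter. Of 13 tested sulfur amino acid genes 4 were higher (30.8%), among them the cysteine dioxygenase Cdo1 (0.71 ± 0.04), Csad (0.32 ± 0.05) and Mpst (0.27 ± 0.07). In the same list 3 were lower (23.1%), Cbs (-1.21 ± 0.40, under 1 CPM), Mtr (-0.28 ± 0.10) and Mtrr (-0.23 ± 0.08).

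The 2 lists of mitochondrial fuel routes nearest to these enzymes moved the same way. All 17 tricarboxylic acid cycle genes were higher, with a median log2 fold change of 0.65, among them Ogdh (0.85 ± 0.03) and Idh3g (0.79 ± 0.04). In fatty acid oxidation 14 of 16 genes were higher, led by Acaa2 (1.17 ± 0.04), Acadm (0.83 ± 0.04) and Hadh (0.70 ± 0.04), and 1 was lower, Cpt1a (-0.19 ± 0.05), with a median of 0.55. Those medians stand beside 0.44 for the branched-chain and propionate members, and the differences between the lists were not tested.

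**Figure D4:**
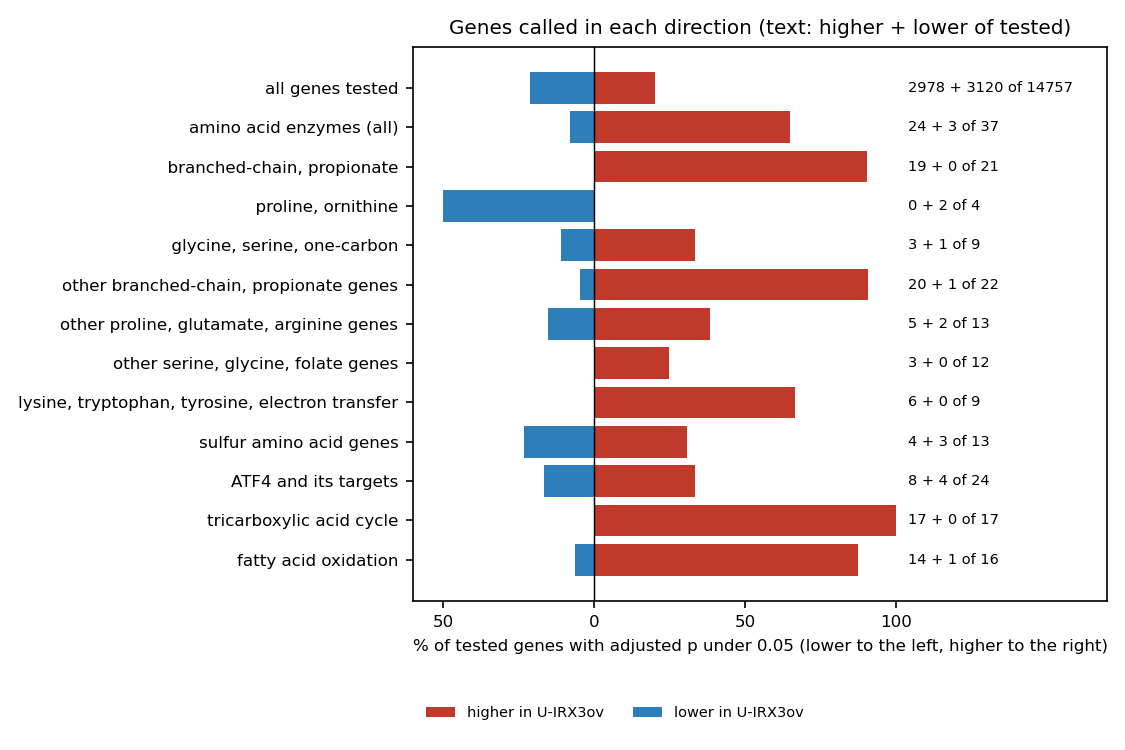
Share of tested genes called higher (right of 0) and lower (left of 0) in U-IRX3ov cells (x axis, %) for each list (y axis), with the counts as text. The branched-chain and propionate members (19 higher of 21) and the list of further genes of or near these routes (20 of 22) stand at 90.5% and 90.9%. Beside them stand 20.2% of all tested genes, while proline and ornithine members show 0 higher and 2 lower of 4.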

How the data were processed

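The authors deposited raw whole-number counts per gene symbol for the 6 libraries, without normalization. The submitters' processing notes name HISAT2 2.0.4 and mm10. How reads were counted, and whether by strand, is not given in the sources used here. Of the 38 members, 20 overlap the span of a gene of the opposite strand and 10 that of one on the same strand. These spans are from the GENCODE annotation of GRCm38. Overlap of exons was not checked, so how far their counts are affected is not known.

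Of 46095 rows 24947 had a count, and filterByExpr left 14757 genes. After TMM scaling, U-IRX3ov was compared with control with the quasi-likelihood test of edgeR 4.0.16 (R 4.3.3), with robust estimation and no covariate, and p-values were adjusted across all genes tested (Benjamini-Hochberg). The standard error is the log2 fold change divided by the square root of F. CPM are scaled by TMM, and levels per length divide them by the union of annotated exons. Alternatives used DESeq2 1.42.0, limma 3.58.1 (voom), other scalings and filters, a replicate block and fits without each library.

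Members and lists were chosen with earlier results of these data known, so no set test was made. Every member is named. Values per library are given for the 2 with the smallest p in each role, for called members that go against their role, for 8 genes chosen by name and for the member under the filter, and other lists give up to 3 genes per direction by p, of which 2 are not reported here. Motifs were searched in promoter windows of RefSeq. The scripts were tested on simulated data.

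Chi-square over its degrees of freedom was 2.99 to 5.20 between libraries of the same group and 64.5 to 75.7 across groups, so no library was a copy of another. Counting errors cover only reads as counted.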

Additional observations from a re-analysis of the deposited data

How the results depend on the processing

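The count of members called higher was 24. It was 20 to 25 in the 6 fits without 1 library and 22 to 25 over the other alternatives of test, scaling and filter. With the threshold moved to an edgeR adjusted p of 0.01 it was 20. The count called lower was 3, and 3 or 4 in every alternative. Of the 27 called members 21 kept their call in all 14 alternatives of test, scaling, filter and libraries, and 6 (Ppm1k, Acad8, Acadsb, Pycr1, Mthfd2 and Asns) lost it in at least 1. Of the 10 members not called, Bcat1, Aldh18a1 and Gcsh passed in at least 1, and Bcat1 did so in 7. No called member changed direction. Amt, not called, ran from -0.21 (without control replicate 1) to 0.017 (without control replicate 2, where it changed direction) on the log2 scale, beside -0.07 with all libraries. Over all genes, 2610 to 2788 were called higher and 2788 to 2913 lower without 1 library. With the longest transcript as length, the median level of the tested members was 27.4 CPM per kb in U-IRX3ov and 21.8 in control cells, beside 20.0 and 17.1 with all exons.

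The titles number libraries 1 to 3 in both groups, and the labels do not tie a number to a mouse or day. Same-numbered libraries deviated together only weakly (correlations of 0.02, 0.07 and 0.05), although each correlated best with its own number. With the replicate block 24 members were called higher and 4 lower, and Bcat1 was the added call (log2 fold change -0.50, edgeR adjusted p = 1.52e-06). Depth limits Prodh, Aass and Amt. Gldc was also low in counts, but its call was kept in all 14 alternatives.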
